A study of Mus musculus with 30 samples.

Results

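The genes described here are the mouse genes with a symbol that start on chromosome 17 between 24 and 32 Mb of the GRCm38 assembly, the stretch that holds Glo1. They were chosen by position, in a region picked because expression differences between genotypes clustered there, and 3 genes in it were left out by name. Of 324 RefSeq genes so defined, 203 were measured, by 271 probes, among 36717 genes and transcripts on the array. RNA was hybridised to 30 Agilent one-colour arrays, 15 of hippocampus and 15 of tissue labelled brain. Each number from the labels stands on 1 array of either tissue with the same genotype and sex, but no label says that both came from 1 mouse, and the numbers of animals given here are per tissue. The 3xTgAD mice (2 females, 3 males) carry the AD alleles of that line, among them neuronal transgenes for human APP and tau under the Thy1 promoter. The JHT_3xTgAD mice (2 females, 3 males), called 3xTgAD-BKO here, also lack B cells through deletion of the immunoglobulin JH segments. The JHT mice (2 females) carry that deletion without the AD alleles, and the WT mice (3 females) carry neither. All mice were 15 to 20 months old by the labels, which name C57BL/6j as the strain of every sample, whereas the study's methods call the 3xTgAD mice congenic under a B6;129 strain name and print a B6.129P2 strain name for JHT. Levels are log2 intensities after quantile normalization, so a difference of 1 is a doubling.

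Glo1 encodes glyoxalase I, which turns the adduct of glutathione and methylglyoxal, a reactive by-product of glycolysis, into S-lactoylglutathione. Hagh, glyoxalase II, which lies in the same stretch, releases lactate from this product and returns the glutathione. Methylglyoxal that is not cleared modifies proteins and forms advanced glycation end products, and Glo1 is abundant in brain tissue.

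The labels could be checked on the arrays. Xist, Ddx3y and Eif2s3y placed all 30 arrays with their labelled sex. Thy1, whose regulatory sequence drives the transgenes, read from 17.95 to 18.28 on the hippocampal arrays of 3xTgAD and 3xTgAD-BKO mice and from 16.85 to 17.06 on those of WT and JHT mice, and the corresponding brain ranges were 17.33 to 17.68 and 16.84 to 17.11. By Thy1 the 3xTgAD-BKO arrays lay with those of 3xTgAD mice. Hippocampal markers were higher in the hippocampus for 6 of 8 genes, and all 4 striatal and all 4 cerebellar markers were lower. In the hippocampus the 3xTgAD arrays and 3 of the 3xTgAD-BKO arrays shared a slide, and the WT and JHT arrays lay on another; in brain the same held with other slides, except that 1 3xTgAD-BKO array lay on the slide of WT and JHT and 1 on the hippocampal slide of WT and JHT. No slide held both 3xTgAD and WT arrays, so these groups could be compared with the slide as a term only through the 3xTgAD-BKO arrays on both. Between 3xTgAD and WT alone, the transgenes and other alleles of the lines cannot be told apart. Of 11 marker lists, the 4 endothelial genes had a summed level that was lower on every 3xTgAD array (13.28 to 13.66 in hippocampus, 13.43 to 13.81 in brain) than on the others (13.85 to 14.60 and 13.94 to 14.43). Cldn5, a tight junction gene, was the 1 endothelial marker called between 3xTgAD-BKO and 3xTgAD. The part of endothelial cells in the results below was not tested, and in whole tissue fewer cells of a type and less RNA per cell cannot be told apart.

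The sequences before the starts of 3 members are shown: Glo1, after which the region is called, and Bricd5 and Dnase1l2, which had the highest and the lowest 3xTgAD minus other difference of all members averaged over both tissues. The table of promoters has no entry for Npw. They are the 250 bases before the transcription start in the C57BL/6J reference (GRCm38.p6, RefSeq), 5′ to 3′ along the gene, and capitals mark matches on either strand to the GC box (GGGCGG), to the CCAAT box, to the TATA box (spelled TATAAA) or to the core of the antioxidant response element (TGACNNNGC). The Glo1 window lies at chr17:30612660-30612909 on the minus strand, that of Bricd5 at chr17:24473634-24473883 on the plus strand, and that of Dnase1l2 at chr17:24443102-24443351 on the minus strand.
Glo1: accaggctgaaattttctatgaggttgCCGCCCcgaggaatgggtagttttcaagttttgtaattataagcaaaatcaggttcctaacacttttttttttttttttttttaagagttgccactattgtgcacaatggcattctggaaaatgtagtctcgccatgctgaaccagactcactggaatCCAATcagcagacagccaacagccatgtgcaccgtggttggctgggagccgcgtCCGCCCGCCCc
Bricd5: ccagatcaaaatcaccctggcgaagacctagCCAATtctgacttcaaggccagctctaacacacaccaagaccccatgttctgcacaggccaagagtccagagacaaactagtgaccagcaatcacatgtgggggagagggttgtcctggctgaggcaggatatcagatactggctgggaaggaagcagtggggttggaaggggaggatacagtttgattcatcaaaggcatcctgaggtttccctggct
Dnase1l2: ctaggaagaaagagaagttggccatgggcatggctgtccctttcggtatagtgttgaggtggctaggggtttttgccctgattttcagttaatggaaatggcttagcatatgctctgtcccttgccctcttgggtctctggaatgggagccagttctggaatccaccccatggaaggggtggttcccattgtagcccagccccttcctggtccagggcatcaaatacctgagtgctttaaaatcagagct
The Glo1 window held 3 GC box matches, of which the pair nearest the start overlapped, and 1 CCAAT match from 65 to 61 bases before the start. The Bricd5 window held 1 CCAAT match, and the Dnase1l2 window held none of these letters. Of 164 members found in the promoter table, 56.7% held the GC box, 39.6% the CCAAT box, 4.27% the TATA box and 9.76% the antioxidant core, beside 32.4%, 34.1%, 13% and 10% of all 27025 symbols with a window of this length. A match is a run of letters and not a measured binding site. The alleles of the mice themselves were not sequenced here.

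Glo1 was about 2 times as high in 3xTgAD mice as in all other mice, in both tissues. On the 5 hippocampal arrays of 3xTgAD mice it read 14.36 and 14.23 in the females and 14.23, 14.41 and 14.23 in the males. The WT females read 13.05, 13.14 and 13.19 and the JHT females 13.23 and 13.22. The 3xTgAD-BKO mice read 13.22 and 13.19 (females) and 13.56, 13.11 and 13.24 (males). No array of another genotype reached the lowest 3xTgAD array, and the nearest was that of 3xTgAD-BKO male replicate 0, the only one above 13.24 among them. That array had 432 outlier spots, beside 104 to 150 on the other hippocampal arrays. In brain the 3xTgAD arrays read 14.38, 14.29, 14.46, 14.46 and 14.43, and the 10 others ran from 13.11 to 13.34 with a median of 13.23. The mean difference between 3xTgAD and all others was 1.08 in hippocampus (2.11-fold) and 1.18 in brain (2.26-fold). The values of WT, JHT and 3xTgAD-BKO arrays ran through one another, and in females 3xTgAD-BKO minus WT was 0.08 (SE 0.13) in hippocampus and 0.12 (SE 0.07) in brain. Between mice of the same slide, Glo1 was higher in 3xTgAD than in 3xTgAD-BKO by 0.97 in hippocampus and 1.12 in brain (5 and 3 arrays in each). In females 3xTgAD minus WT was 1.17 (SE 0.13) in hippocampus and 1.16 (SE 0.07) in brain, and 0.79 (SE 0.14) and 1.15 (SE 0.12) with the slide as a block. Since Glo1 was chosen for this pattern, its genotype differences are a description and carry no test.

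**Figure D1:**
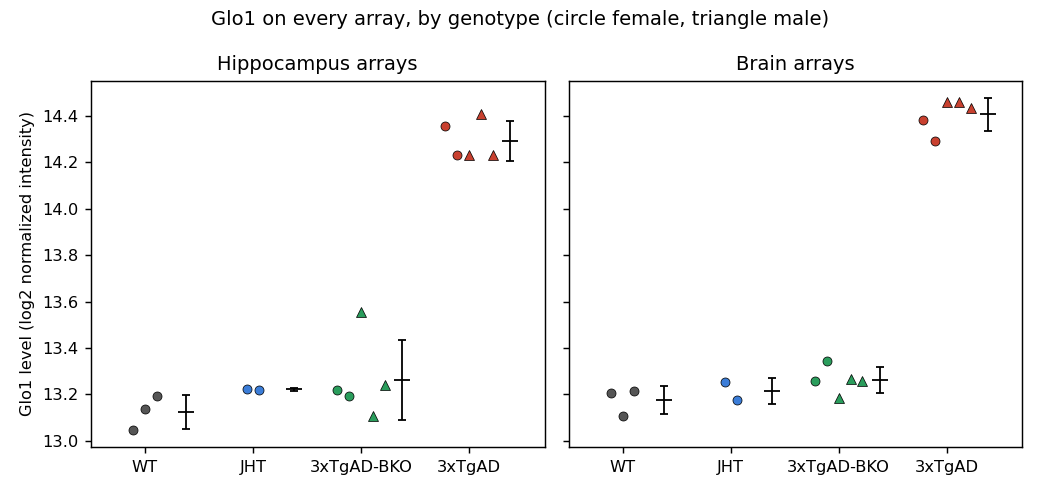
Glo1 level (log2 normalized intensity) on each array of the hippocampus (left) and brain (right), by genotype, with females as circles, males as triangles and mean ± SD beside the points. The 3xTgAD arrays sit between 14.23 and 14.46 and every other array between 13.05 and 13.56.

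The counts over the whole stretch follow from the contrasts that led to its choice, and nothing is read from them beyond their size. With limma and a Benjamini-Hochberg adjusted p under 0.05 over all genes, 16 of 203 members were called between 3xTgAD-BKO and 3xTgAD in hippocampus (7 higher and 9 lower in 3xTgAD-BKO), where 1.02% of all genes were called (0.596% higher and 0.422% lower). In brain 29 were called (14 higher, 15 lower), beside 2.64% of all genes (1.53% higher and 1.11% lower). Of these, 15 were called in both tissues, all with the same sign, as were 0.61% of all genes. The hippocampal count depended on the fit, from 9 with only the groups compared (0.4% of all genes) to 48 with the slide as a block (11.3%). With 75th percentile scaling in place of quantile normalization, 3 were higher and 8 lower in hippocampus, beside 0.436% and 0.387% of all genes. In brain 8 were higher and 13 lower under that scaling, beside 0.983% and 0.869% of all genes. Between 3xTgAD and WT females, which no slide held together, 7 members were called in hippocampus (background 0.746%) and 16 in brain (background 1.15%). With the slide as a block these were 29 (8.88%) and 9 (3.08%), with only the groups compared 5 (0.458%) and 4 (0.488%), and without any 1 of the numbers 4 to 13 and 8 to 19. The 3xTgAD females stand in both contrasts and the WT females in the comparisons that follow, so these are not independent views. Between JHT and WT females 0 members were called in either tissue by limma (backgrounds 0.0926% and 0.161%). At an unadjusted p under 0.05 limma gave 14 and 8 members, beside 7.83% and 6.31% of all genes, and the methods' t-test gave 24 and 11, beside 9.28% and 5.76%. Between 3xTgAD-BKO and WT females, a contrast added after seeing the data, limma also called 0 members (backgrounds 0.237% and 0.994%), with 35 and 21 at an unadjusted p under 0.05, beside 10.4% and 13.2% of all genes. The median absolute difference between 3xTgAD-BKO and 3xTgAD over the members was 0.16 in each tissue, beside 0.15 over all genes in hippocampus and 0.13 in brain. Restricted to genes with signal over background throughout the arrays of 1 tissue, the median was 0.16 for members and 0.11 for all in hippocampus, and 0.15 and 0.10 in brain.

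For 14 members all 5 arrays of the 3xTgAD mice lay outside the range of the 10 others, in the same direction in both tissues. The same held for 0.654% of all genes. Of the 14 members, 8 were higher and 6 lower in 3xTgAD. In chromosome order they included Abca3, Dnase1l2, Bricd5, Npw, Noxo1, Fahd1, Spsb3, Telo2, Gnptg, Decr2, Taf11, Fgd2 and Glo1. They spanned 6.24 Mb and were spread among members that overlapped: no 2 of them were neighbours among the measured genes. Between 3xTgAD and 3xTgAD-BKO the Noxo1 difference in hippocampus was small in females (0.19) and larger in males (1.06).

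**Figure D2:**
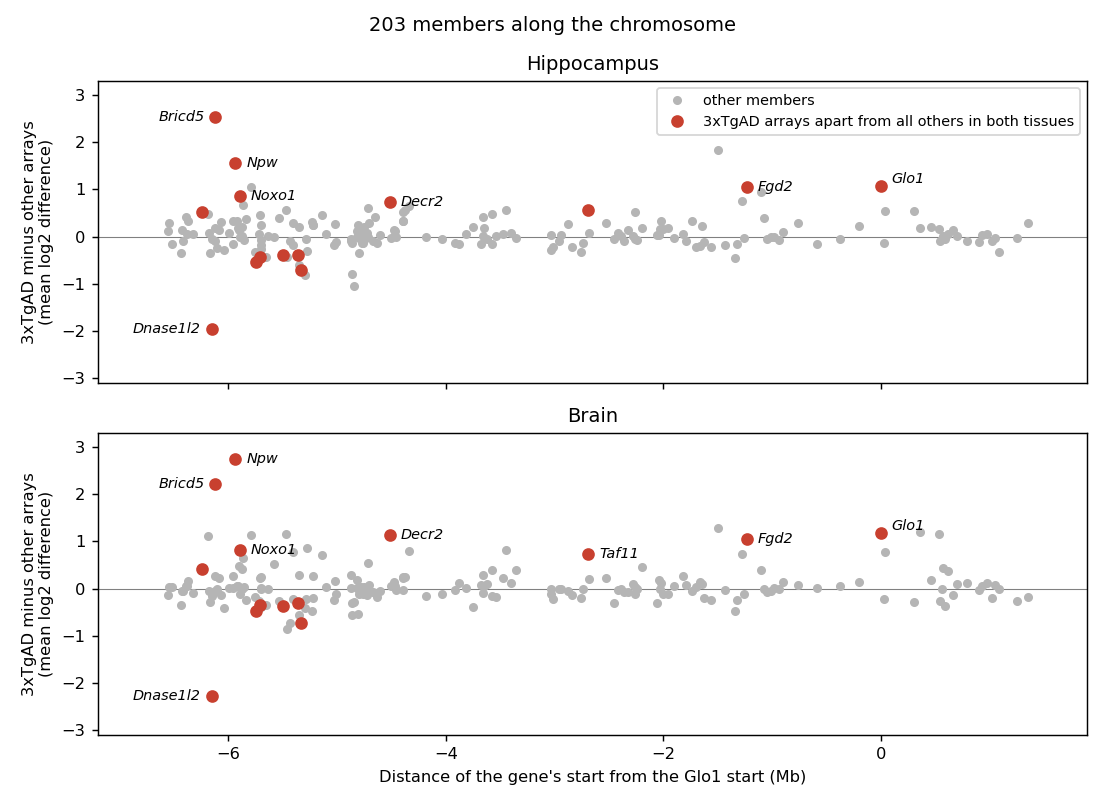
Mean log2 difference between the 5 3xTgAD arrays and the 10 other arrays of a tissue for each of the 203 members, against the distance of the gene's start from that of Glo1 in Mb, with hippocampus above and brain below. Red points are the 14 members whose 3xTgAD arrays lay outside the range of all others in both tissues; among them Bricd5 and Npw lie highest and Dnase1l2 lowest, and Glo1 stands at 0 Mb with differences of 1.08 and 1.18.

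Among the members higher in 3xTgAD, Bricd5, named for its BRICHOS domain, differed most over both tissues and followed Glo1 most closely. Its hippocampal level was 9.76, 9.89, 9.69, 9.82 and 9.82 in 3xTgAD mice, and 6.69 to 7.70 with a median of 7.30 on the 10 others. In brain the 3xTgAD arrays read 9.59, 9.79, 9.62, 9.76 and 9.69 and the others 7.13 to 7.77 with a median of 7.48. The groups were far apart, by 2.54 (5.83-fold) and 2.21 (4.63-fold) on average. Npw encodes neuropeptide W, a ligand of G protein-coupled receptors. Its level in hippocampus was 8.99, 8.93, 8.35, 8.60 and 8.53 in 3xTgAD, against 6.51 to 8.18 (median 7.04) elsewhere, and the 3xTgAD-BKO male replicate 8 came nearest at 8.18. In brain it was 8.58, 8.91, 8.84, 8.70 and 8.98 against 5.52 to 6.66 (median 6.19), a 6.69-fold difference. The lowest brain values were those of 3xTgAD-BKO mice, and in females 3xTgAD-BKO minus WT was -0.54 (SE 0.20).

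The remaining higher members take part in lipid handling, oxidant production, signalling and transcription. Fgd2, an exchange factor for the GTPase Cdc42, read 8.82 to 9.15 in 3xTgAD against 7.46 to 8.43 in hippocampus and 9.01 to 9.18 against 7.76 to 8.59 in brain, so it was 2.07-fold higher in each. Decr2, a peroxisomal enzyme of unsaturated fatty acid breakdown, was 1.65-fold higher in hippocampus (11.42 to 11.95 against 10.83 to 11.13) and 2.19-fold higher in brain (11.28 to 11.61 against 10.05 to 10.58). Noxo1, the organizer subunit of an NADPH oxidase, was 1.81-fold and 1.77-fold higher. Taf11, a subunit of the general transcription factor TFIID, differed by 0.57 and 0.74. Abca3, a lipid transporter, differed by 0.53 and 0.41, from levels that were already high in every genotype (at least 13.08). All of these ranges were free of overlap, and the narrowest gap was in hippocampal Taf11, where 3xTgAD began at 10.71 and the others ended at 10.64.

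Among the members lower in 3xTgAD, Dnase1l2, which encodes a nuclease of the DNase I family, differed most. In hippocampus it read 6.23, 4.98, 5.16, 5.51 and 5.21 in 3xTgAD mice and 6.55 to 8.17 (median 7.51) on the others, and 1 of the 15 arrays was not well above background. In brain it read 5.87, 6.34, 5.46, 5.78 and 5.90 against 7.75 to 8.56 (median 8.21). The differences of -1.95 and -2.27 correspond to 3.87-fold and 4.84-fold lower signal. Dnase1l2 and Bricd5 start close to each other, at -6.15 and -6.12 Mb from the Glo1 start, and differed in opposite directions. Other lower members differed by less. Among them were Gnptg, a subunit of the enzyme that tags lysosomal hydrolases (-0.39 and -0.31), Fahd1, a mitochondrial hydrolase (-0.53 and -0.47), Spsb3, a SOCS box protein (-0.44 and -0.35), and Telo2, which helps stabilize kinases of the ATM and mTOR family (-0.39 and -0.36).

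**Figure D3:**
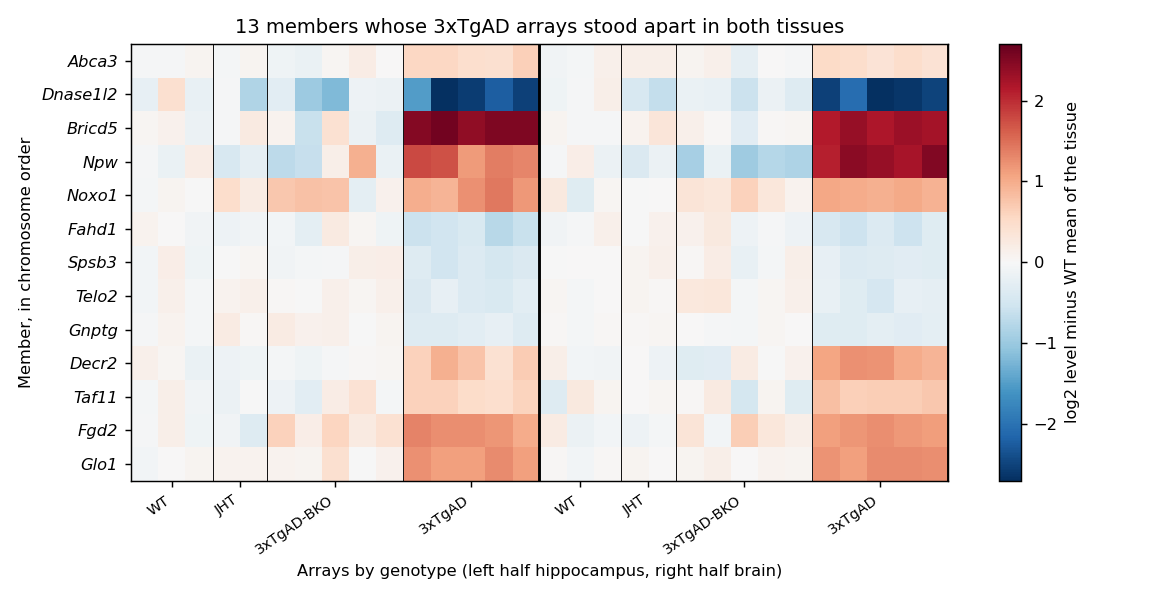
Level of 13 of the 14 members on each array minus the mean of the WT arrays of that tissue (log2, colour), with members in chromosome order and arrays grouped by genotype, hippocampus left and brain right. The 3xTgAD columns differ from all others in every row, in red for 8 members and in blue for 5, with Bricd5, Npw and Dnase1l2 the deepest.

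Some members were called in a contrast while their arrays overlapped in at least 1 tissue. Clcn7, a chloride and proton exchanger of lysosomes, read 9.29 to 9.51 in 3xTgAD brain against 10.02 to 10.84, yet in hippocampus 3xTgAD-BKO male replicate 0 lay at 9.66, below all 3xTgAD arrays. This is the array with 432 outlier spots. Umodl1 was lower in 3xTgAD-BKO by 1.08 in brain (SE 0.15) and differed by -0.20 (SE 0.24) in hippocampus. Luc7l, a splicing factor of the U1 snRNP, was lower in 3xTgAD-BKO by 0.70 and 0.84, but its highest WT array in hippocampus, 9.57, lay above the lowest 3xTgAD array, 9.54. Ip6k3, an inositol phosphate kinase, was lower by 0.84 in brain (SE 0.18). D330041H03Rik was called in brain although no array of the groups compared was well above background, so no fold is given.

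The probes of 1 gene did not always tell the same story, and 60 of the 203 members had more than 1 probe. By probe, 18 of 271 stood apart in both tissues, beside 0.564% of all probes. The clearest case was Btbd9, a BTB-domain gene that starts at -377.34 kb from Glo1. Its brightest probe, which stands for the gene, overlapped between genotypes (13.67 to 14.14 in 3xTgAD hippocampus, 13.63 to 14.29 elsewhere), as did its second probe. The probe designed on another transcript, NM_172618, read 12.42 to 12.62 in 3xTgAD hippocampus against 9.21 to 9.76, and 11.75 to 11.90 in brain against 7.82 to 8.63. Its differences of 3.03 and 3.77 exceeded those of every one of the 14 members at the gene level.

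Ptx4, a pentraxin gene, showed the reverse. Its dimmer probe was well above background on 10 of 10 other arrays and on 0 of 5 3xTgAD arrays in each tissue, at least 34.3-fold lower in 3xTgAD hippocampus and at least 7.26-fold lower in brain, each bound set by the faintest signals above background. Its brighter probe overlapped in both tissues and averaged higher in 3xTgAD (by 0.56 and 1.16). Rps2, a ribosomal protein gene, had 1 overlapping probe (15.13 to 15.53 against 15.16 to 15.66 in hippocampus) and 1 lower in 3xTgAD, at 14.11 to 14.66 against 15.55 to 15.89. In brain that probe read 13.71 to 14.09 against 15.05 to 15.58. The probes of Gnptg were both lower in 3xTgAD but by unlike amounts, -0.39 and -1.46 in hippocampus. Of the 14 members, 12 had a single probe and therefore no such check, and of the 2 others, 1 had no further probe that stood apart. Probe sequences were not used here, so whether a probe lies over a difference between alleles was not tested.

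**Figure D4:**
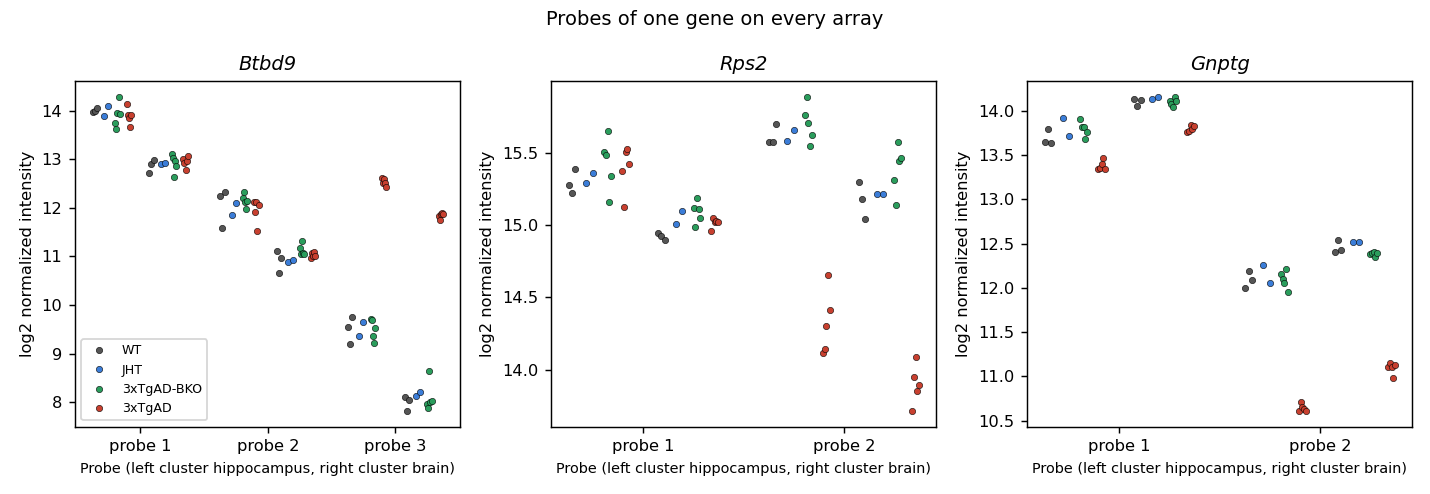
Log2 normalized intensity of each probe of Btbd9, Rps2 and Gnptg on every array, coloured by genotype, with probes in order of brightness and hippocampus left of brain within a probe. The 3xTgAD points leave the others in probe 3 of Btbd9, probe 2 of Rps2 and both probes of Gnptg, and mix with them in the rest.

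None of the 5 measured neighbours on either side of Glo1 stood apart in both tissues by the probe that stood for it, and Umodl1 did so in brain. Before it lie Ccdc167, Mdga1, an adhesion molecule that binds neuroligins, Zfand3, Btbd9 and Gm6402. After it lie 1700097N02Rik, Dnah8, an axonemal dynein heavy chain, Glp1r, the GLP-1 receptor, Umodl1 and Abcg1, a cholesterol efflux transporter. Umodl1 read 5.53 to 5.99 in 3xTgAD brain against 4.13 to 5.01 elsewhere, 2.29-fold higher beside 2.26-fold for Glo1, while its hippocampal values overlapped. Between 3xTgAD-BKO and 3xTgAD, Abcg1 differed by -0.33 (SE 0.06) in hippocampus and 1700097N02Rik by 0.37 (SE 0.08) in brain. Dnah8 read 7.83 to 8.18 in 3xTgAD hippocampus, and 3xTgAD-BKO female replicate 7, at 7.98, lay inside that range. Zfand3, at -587.82 kb, differed by 0.14 (SE 0.09) and 0.00 (SE 0.09). Glp1r was well above background on 12 of 15 hippocampal and 10 of 15 brain arrays, and Gm6402 on all 15 hippocampal arrays and no brain array.

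Along the chromosome, the members that stood apart differed in number from one megabase to the next. Of 49 members from 24 to 25 Mb, 7 stood apart in both tissues, beside 0.654% of all genes. In brain 13 of them were called between 3xTgAD-BKO and 3xTgAD, beside 2.64% of all genes. From 25 to 26 Mb the figures were 3 and 5 of 48 members. The 25 members from 28 to 29 Mb included none of either, and the 8 from 30 to 31 Mb included Glo1 alone as apart. The edges of the stretch cut through no clear border. Just inside it, Prss27 and Kctd5 at the low edge and Sik1 and Hsf2bp at the high edge overlapped between the genotypes, as did Prss30, Prss22 and Rrp1b just outside. Pdxk-ps, the next gene beyond, overlapped in hippocampus and was higher in 3xTgAD brain (6.72 to 6.82 against 6.22 to 6.57). Further below, Prss41, Pkmyt1, Zfp945 and Zfp758, named after their values were seen, stood apart in both tissues, at -6.76 to -8.23 Mb from Glo1; Prss41 averaged 2.74 and 2.87 higher in 3xTgAD and Zfp758 fell by 2.01 and 1.80. No gene from 32 to 35 Mb stood apart in both tissues, although some besides Pdxk-ps did so in brain. Of 64 genes from 35 to 36 Mb 2 stood apart in both, and of 30 from 36 to 37 Mb 2 did.

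Over the 15 arrays of a tissue, the members most like Glo1 were Bricd5 (mean Pearson's r over the tissues 0.980), Fgd2 (0.915), Decr2 (0.913), Npw (0.906) and Abca3 (0.894). Dnase1l2 ran opposite to Glo1 (-0.941). These correlations describe arrays that fall in 2 clusters, 3xTgAD and the rest, and mostly restate that split. Likeness was not particular to the stretch: Cox18, a mitochondrial insertase gene on chromosome 5 named after its value was seen, had a mean r of 0.985.

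The tissue difference was not used in choosing the members and could be tested. Between hippocampus and brain 140 of 203 members were called by limma (66 higher and 74 lower in hippocampus), beside 51.1% of all genes (25.1% higher and 26% lower). With 75th percentile scaling, which raised the median difference of all genes to 0.28, 143 members were called (83 higher, 60 lower) beside 67.8% of all genes (47.1% higher, 20.7% lower). Among genes that passed a filter on dim probes, 144 of 185 members (77.8%) were called beside 71.8% of genes. Of the 140 members called without the filter, 20 differed more than 2-fold, 6 of them higher in hippocampus, beside 9.24% and 3.88% of all genes. With only the 3 WT females, 69 were called, beside 25% of all genes. Glo1 itself did not pass the test, with hippocampus minus brain at -0.05 (95% interval -0.13 to 0.04; adjusted p = 0.376), nor did Bricd5 (-0.13; adjusted p = 0.168) or Fgd2 (-0.05; adjusted p = 0.552); with the deposited scores Bricd5 passed it (adjusted p = 0.017). Of the 14 members, 11 were called, 5 higher in hippocampus and 6 lower.

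The members with the largest rise in hippocampus over brain were Gm6402, Umodl1, Cacna1h, Ptx4 and Mdga1. Umodl1 ran from 6.25 to 7.62 in hippocampus and from 4.13 to 5.99 in brain, where 10 of 15 arrays were well above background. Mdga1 ran from 12.47 to 13.03 against 10.89 to 11.40, 3.14-fold higher (SE 0.05 on the log2 scale), with no overlap. Cacna1h, a T-type calcium channel, was 3.28-fold higher and Ptx4 3.22-fold. Gm6402 was well above background on every hippocampal array and on no brain array, at least 4.28-fold higher. Those that were lowest in the hippocampus were Mslnl, Mapk13, Cpne5, Baiap3 and Rpl3l. Mapk13, a p38 kinase, ran from 5.27 to 7.16 in hippocampus against 8.11 to 8.84, 4.73-fold lower, and Cpne5, a copine that binds membranes on calcium signals, from 12.09 to 13.29 against 14.01 to 14.48. Baiap3, a regulator of dense-core vesicle release, overlapped, at 4.64 to 8.75 against 7.31 to 8.75. Mslnl and Rpl3l were well above background on 2 of 15 hippocampal arrays each, so their lower side was barely measured. The 5 choroid plexus markers, with a summed hippocampal level from 10.54 to 18.48, varied more between hippocampal arrays than between brain arrays (15.95 to 17.44), and their part in these tissue differences was not tested.

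**Figure D5:**
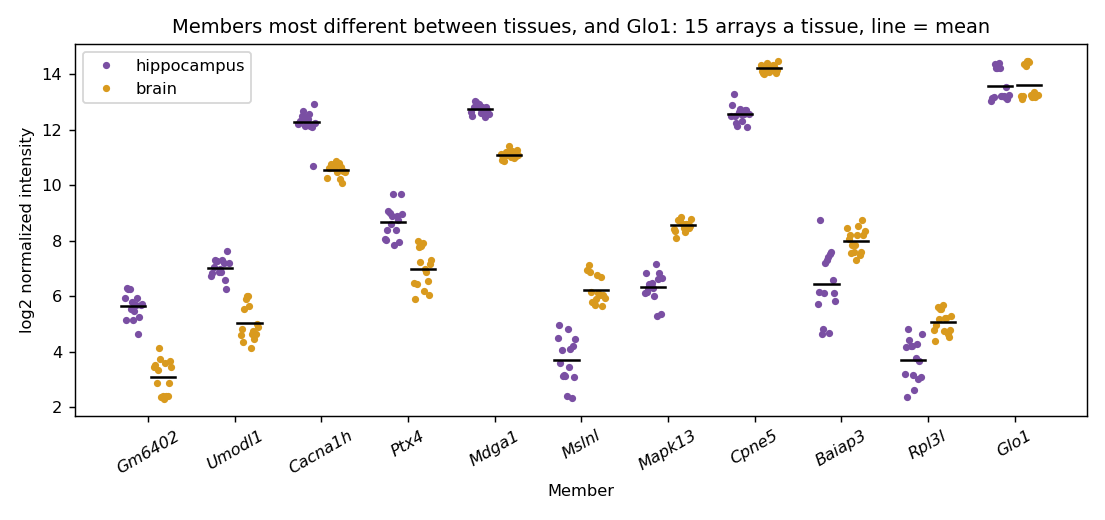
Log2 normalized intensity on 15 hippocampal and 15 brain arrays, with the mean as a line, for the 5 members furthest above and the 5 furthest below brain in hippocampus and for Glo1. The clouds of Mdga1, Mapk13 and Cpne5 do not overlap, whereas Glo1 shows the same 2 clusters, near 13 and above 14, in each tissue.

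The difference between the genotypes was also set side by side for the tissues. Because the genotype contrasts led to the choice of the members, this too is a description and carries no test. Counts past a threshold are set beside those of all genes, and nothing is read from them beyond their size. For Npw, 3xTgAD-BKO minus 3xTgAD was -1.68 in hippocampus and -3.01 in brain, which differ by 1.33 (SE 0.24). For Umodl1 the corresponding difference was 0.88 (SE 0.29), and for Glo1 it was 0.09 (SE 0.10). As a count only, 15 members had an unadjusted p under 0.05 by limma, beside 6.03% of all genes. Past the adjusted threshold was 1 of 203 members, Npw, beside 0.0899% of all genes. Npw was no longer past it with normexp background correction, where the difference was 0.79, with the shared number as a block, or without any 1 of 10 of the 15 numbers, where the difference over all such fits ran from 1.18 to 1.48.

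Between males and females 0 members were called by limma in hippocampus or brain (backgrounds 0.0381% and 0.139%). At an unadjusted p under 0.05 there were 10 and 23 members, beside 5.82% and 9.38% of all genes. With the slide as a block 19 and 2 members were called, beside 8.02% and 1.2% of all genes.

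The rest of methylglyoxal and glutathione metabolism was described through a list of 26 genes, all measured, of which Glo1, Hagh and Haghl lie in the stretch. Of the other 23, limma called 0 in hippocampus between 3xTgAD-BKO and 3xTgAD (median difference 0.04, beside 0.01 over all genes), where 1.02% of all genes were called. In brain, where 2.64% of all genes were called, it called 1, Aldh1a1, an aldehyde dehydrogenase that makes retinoic acid, which was higher in 3xTgAD-BKO by 0.33 (SE 0.07, adjusted p = 0.048). None of the 23 was called between 3xTgAD and WT (backgrounds 0.746% in hippocampus and 1.15% in brain) or between JHT and WT (0.0926% and 0.161%). A share of 0 or 1 in 23 is near these backgrounds. Hagh read 13.10 to 13.49 in 3xTgAD hippocampus and 13.44 to 14.19 elsewhere, so the groups overlapped, and its 3xTgAD-BKO minus 3xTgAD difference of 0.43 (SE 0.13) was not called. Haghl, a glyoxalase II relative, differed by -0.03 (SE 0.12). Between tissues 3 of the 23 were higher and 15 lower in the hippocampus by limma, beside 25.1% and 26% of all genes. Among genes that passed the filter on dim probes, 71.8% were called in either direction.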

How the data were processed

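The authors hybridised RNA to Agilent one-colour mouse arrays and deposited the scanner output of Feature Extraction 12.0.3.1, whose processed signal is a background-subtracted intensity per spot with flags for spots well above background and for outlier spots. They also deposited a matrix of scores per probe, which differed from each array's own Z score of log10 intensity by a median of at most 0.0025 (column medians -0.31 to -0.20); it served as an alternative. The array headers name build mm9.

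From these files, control and outlier spots were left out, spots of a probe averaged, log2 intensities quantile-normalized over the 30 arrays, and each gene given its brightest probe. Probes were matched through their accessions to RefSeq genes of GRCm38.p6, which gave the order and distances of the members. Per tissue, limma 3.58.1 (R 4.3.3) was fitted over 6 groups of genotype and sex for 36717 genes and transcripts, with a call at a Benjamini-Hochberg adjusted p under 0.05. Tissue and its interaction with genotype used 12 groups on 30 arrays. The steps were tested on simulated data.

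The members, gene lists and tests were chosen with earlier results of these data known. The text names Glo1, its 5 measured neighbours on either side, the 10 members with the largest difference in each genotype comparison, the genes at the edges, the extremes by tissue, members called by sex or interaction, list genes called and the 5 members most like Glo1; others were named after their values were seen. A member that the rule names and an allele of the 3xTgAD line are not reported here. Normexp was planned on the mean spot signal, which is no column of the files, and used the median pixel signal instead.

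A number in the labels is shared by 1 hippocampal and 1 brain array, but nothing says that they came from 1 animal; the number served as a block in an alternative only. Replicates of a tissue were taken as separate mice, in keeping with the study's legends, where a symbol is 1 mouse. The number of arrays limits the precision; the 75th percentile of intensity ran from 394.2 to 1384 over the arrays, and 52.6% to 62.5% of probes were well above background.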

Additional observations from a re-analysis of the deposited data

Results flagged for a closer look

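Among 146 groups of 5 values, each a named gene in the mice of 1 genotype and tissue, 9 held a value far from the rest by Dixon's ratio; chance flags about 1 group in 20. Bricd5 read 7.13 in the brain of 3xTgAD-BKO male replicate 0, below the next at 7.47. Cpne5 read 12.09 in the hippocampus of 3xTgAD-BKO male replicate 8. Dnah8 read 8.96 in the brain of 3xTgAD female replicate 2, with the next array at 7.57. Npw read 6.29 in the brain of 3xTgAD-BKO female replicate 7, the others ending at 5.70. Sik1, an immediate early kinase gene, read 4.98 in the hippocampus of 3xTgAD-BKO male replicate 0, with the next at 7.91. That is the array with 432 outlier spots. Hsf2bp read 5.78 in the hippocampus of 3xTgAD-BKO male replicate 9 and Prss22 read 6.81 in the hippocampus of 3xTgAD male replicate 4, where the next arrays were at 2.27 and 2.21. In its group Hsf2bp was well above background on 1 of 5 arrays, so most of its values there were barely measured. The next Prss22 value lay at a similar level. Prss27 read 3.97 in the brain of 3xTgAD male replicate 4, and Rpl3l read 5.17 in the brain of 3xTgAD female replicate 2.

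Npw was also set apart by a difference between tissues: its 3xTgAD-BKO minus 3xTgAD difference was larger in brain than in hippocampus by 1.33 on the log2 scale and of the same direction in both. It was past limma's threshold as reported, but not with normexp, where it was 0.79, with the shared number as a block, or in 10 of the 15 fits that left out 1 number. Since the genotype contrasts led to the choice of the members, this call is a description and carries no test.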

How the results depend on the processing

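The numbers of members called depended on how arrays were compared. The share of all genes called under the same setting stands in parentheses. Between 3xTgAD-BKO and 3xTgAD in hippocampus, 16 were called as reported (1.02%), 9 with only the groups compared (0.4%), 9 in females (0.37%) and 10 in males alone (0.847%), 35 on the arrays of 1 slide (9.15%), 48 with the slide as a block (11.3%), and 45 (6.76%) and 10 (0.316%) by the methods' t-test without and with Benjamini-Hochberg adjustment. In brain 29 (2.64%) became 12 in females (1.12%), 15 in males (0.961%) and 75 by the unadjusted t-test (12.8%). Between 3xTgAD and WT females in hippocampus 7 (0.746%) became 11 at an adjusted p of 0.1 (1.5%), 29 with the slide block (8.88%), and 52 (13.5%) and 0 (0.0735%) by the t-test without and with adjustment. In brain 16 (1.15%) became 9 with the deposited scores (0.7%), 9 with the slide block (3.08%), 4 with only the groups compared (0.488%), and 48 (13%) and 0 (0.0245%) by the t-test. Between JHT and WT the unadjusted t-test called 24 (9.28%) and 11 (5.76%) in place of 0. The tissue call of 140 members (51.1%) was 143 with 75th percentile scaling (67.8%) and 144 with the filter on dim probes (71.8%), and fell to 69 in WT females (25%); with the shared number as a replicate block it was 137 (51%), of which 134 were among the 140. The interaction count of 1 (0.0899%) became 0 with normexp (0.0463%) and 0 with the replicate block (0.0191%, with Npw at 1.33), which was run for these 2 comparisons alone. Arrays of the same number share only that number by the labels: their deviations from group means correlated with a median r of 0.10 (range -0.18 to 0.24 over 15 pairs, 8 of them above 0.1), and 5 of 15 hippocampal arrays were most like the brain array of their own number. For sex the slide block called 19 in hippocampus (8.02%) and 2 in brain (1.2%) in place of 0. The cause of these shifts was not tested.

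Leaving out each number in turn gave 10 to 19 calls (3xTgAD-BKO minus 3xTgAD, hippocampus; 0.757% to 1.44% of all genes) and 19 to 28 (brain; 1.66% to 3.59%), 4 to 13 (0.368% to 1.05%) and 8 to 19 (0.814% to 1.4%) for 3xTgAD minus WT, 0 to 1 in each tissue (JHT minus WT; 0.0626% to 0.703% and 0.153% to 1.12%), 129 to 151 (tissue; 47.7% to 54.6%), 0 to 2 (interaction; 0.0463% to 0.64%), and 0 (0.0327% to 0.447%) and 0 to 2 (0.098% to 1.04%) for sex. The counts moved by over 1.5 times without replicates 2 or 6 (10 each, at 1.02% and 1.27%) and without replicate 5 (19, brain, at 2.15%); for 3xTgAD minus WT without replicates 0 (13) or 10 (4) in hippocampus and without 1 (10), 2 (8), 10 (9) or 12 (10) in brain. The interaction count moved in 12 of 15 such fits, to 0 without any 1 of replicates 0, 2, 3, 4, 5, 10, 11, 12, 13 or 14 and to 2 without 1 or 7. From 0, the JHT minus WT count became 1 without replicate 12 (hippocampus) or 14 (brain), and the brain sex count 1 without replicate 1 and 2 without 7. Over named members and settings, 1543 differences kept direction and call, 230 kept direction only, and 1 reversed: the tissue difference of Glp1r, 0.45 as reported, was -0.40 in WT females.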
